A study of Mus musculus with 2 samples.

Results

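Mesp1-expressing cells were examined in a single-cell RNA library of PHD2 knockout mouse embryonic stem cells that had been driven toward mesendoderm for 4 days. A knockout cell was a member when it held 3 or more unique molecular identifiers (UMIs, each counting 1 captured RNA molecule) of Mesp1. Of 7383 knockout cells inside the limits on cell quality, 1346 were members (18.2%, exact binomial 95% interval 17.4 to 19.1) and 6037 were not. Both libraries together held 17364 barcodes. The measured Mesp1 count chose the members, so the level of Mesp1 in them is a description and not a finding.

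The series compared PHD2-KO with WT cells of AB2.2, an established mouse embryonic stem cell line, with 1 library per genotype, both differentiated for 4 days and brought into suspension with trypsin. Egln1 encodes PHD2, a prolyl hydroxylase that senses oxygen. The sources used here name neither the altered part of Egln1 nor the number of clones and cultures. Cells of a library share their culture and are not replicates, so no test was possible, and every interval below covers counting error only.

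Mesp1 is a basic helix-loop-helix transcription factor that marks the earliest mesoderm of the mouse embryo. During gastrulation, epiblast cells enter the primitive streak, switch on Brachyury (T), Mixl1 and Eomes, lose epithelial junctions and leave the streak as mesoderm. Mesp1 is transient in the cells that leave, whose descendants include heart, vessels and cranial and extraembryonic mesoderm. Eomes and T are T-box factors, which bind DNA through motifs of the TCACACCT type.

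That motif was searched on both strands in RefSeq promoter windows (build GRCm38.p6), each reaching from 250 bases before to 50 bases after a transcript start. It is shown for Mesp1 because Mesp1 defined the cells and T-box genes are followed through them. The stretch lies at chr7:79793567-79793596 on the minus strand, in the untranslated start of the first exon of the GENCODE transcript, with the motif in capitals beginning at base 6 of the RefSeq transcript.
Mesp1: aggggcccgctTCACACCTagggctcagga
The motif was held by 419 of 32851 promoter windows (1.28%). The windows of Lhx1, Cyp26a1, Pdgfra, Pmp22, T, Fgf3, Gsc, Snai1, Gas1, Lmo1, Efna3 and Ptgds did not hold these letters, and Gata6, Cdh2, Cdh11, Dlc1, Fam212a and Tbx3 had no window. A match describes the letters only, and binding was not measured.

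Most Mesp1 RNA sat in few cells. Among the 7383 knockout cells, 4375 (59.3%) held no Mesp1 UMI, 1345 (18.2%) held 1, 317 (4.29%) held 2 and 121 held 3. The members ran from 3 to 213 UMIs with a median of 17 (quartiles 7 and 38), and they held 94.8% of all Mesp1 UMIs of these cells. In the WT library 2 of 9227 cells reached 3 UMIs (0.0217%, interval 0.00263 to 0.0783), one with 4 and the other with 12 UMIs. Their totals of 47338 and 53053 UMIs were deep for that library, whose median was 20740. The libraries shared 22 barcodes, of which 3 were members, and neither of the WT cells was among them.

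**Figure D1:**
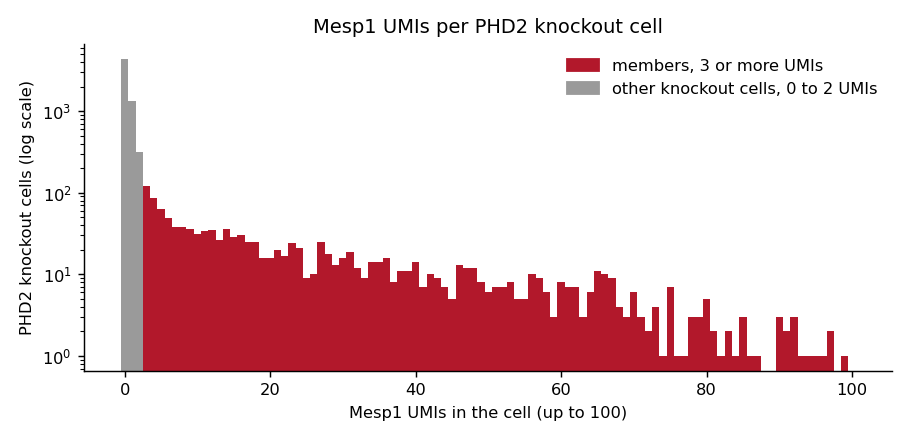
Number of PHD2 knockout cells (log scale) at each Mesp1 UMI count up to 100. Members begin at 3 UMIs, and the counts fall away from 4375 cells at 0 UMIs with no gap at the threshold.

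Mesp1 UMIs were also found outside the members, at 1 or 2 per cell. After every cell was thinned to 14000 UMIs, 98.0% of 1268 members held a Mesp1 UMI, against 18.4% of 5463 other knockout cells. Non-member cells from the 5% with the most naive pluripotency RNA, a state before streak genes are used, still held one in 14.5% of 337 cells (upper bound 18.8%). Their median depth was 24407 UMIs, against 22418 UMIs in members and 21112 UMIs in other knockout cells. In WT cells the share was 0.462%. The interval of the share in other knockout cells, 17.3 to 19.4%, overlaps that of the naive pluripotency-high cells.

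Members were slightly deeper than the rest. Their median was 22418 UMIs (quartiles 18420 and 28930) and 3947 genes, against 21112 UMIs (17338 and 26741) and 3878 genes in other knockout cells. Mitochondrially encoded RNA had a median of 1.27% in members and 1.34% in the others. With knockout cells split by depth into 4 equal groups, members made up 14.7% of the shallowest, then 17.3%, 19.2% and 21.7% of the deepest. The cells with the highest doublet scores, 456 in all, included 9.58% of members and 5.42% of the others. Members also held more cells with a low share of chromosome 8 UMIs (66.7%, against 39.1% of other knockout cells), and the main values are given on both sides of that split at the end. The part of depth or doublets in the levels below was not tested. Repeats of the calls without those cells and within a narrow depth range are counted among the alternatives at the end, not listed gene by gene.

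Levels are UMIs summed over a group of cells and scaled to counts per 1e6 UMIs (CPM). A gene was measured when it reached 5 CPM in the higher group, and is called higher or lower when its level differed at least 1.5-fold. Members were set against all other knockout cells, and against 2807 knockout cells with no Mesp1 UMI and 3 or more T UMIs, called Brachyury-high Mesp1-negative cells here. Of 8651 genes measured against other knockout cells, 262 were higher in members (3.03%) and 614 lower (7.10%). Of 8647 measured against Brachyury-high Mesp1-negative cells, 269 were higher (3.11%) and 627 lower (7.25%). The median log2 ratio of all measured genes was -0.02 in both comparisons. The second group was chosen on T and on having no Mesp1, so those genes are not compared with it. A low gene can count as measured through the group where it is high alone, which can fix its call. Shares over measured genes therefore lean toward differences. Against other knockout cells this fixed as higher Mesp2, Gata6, Pdgfra, Tbx6, Frzb, Aplnr, Hand1, Gata4, Wnt2 and Kdr. It also fixed Fgf3, Fgf10, Cfc1, Fzd7, Hoxb2, Epha4, Plxna2 and Gata3, among others. Nkx1-2 and Hk1, among others, were fixed as lower because they were measured through other knockout cells alone.

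The markers that name the population were higher in members. Mesp1 itself (ENSMUSG00000030544; mm10 chromosome 7, 79792241 to 79793788, minus strand) stood at 1068 CPM in members and 14.2 CPM in other knockout cells, as the choice requires. Lhx1, a LIM homeobox factor of the streak and early mesoderm (chromosome 11, 84518284 to 84525535), was at 139 CPM in members (interval 135 to 143) and 7.87 CPM in other knockout cells (7.41 to 8.35), 17.7-fold higher (16.6 to 18.9). Cyp26a1, the enzyme that degrades retinoic acid in the gastrulating embryo (chromosome 19, 37697798 to 37701536), was at 104 and 8.06 CPM, 12.8-fold higher (12.0 to 13.7). Gata6, a zinc finger factor of mesoderm and endoderm (chromosome 18, 11052064 to 11085635), was at 23.0 and 1.89 CPM, 12.2-fold higher (10.6 to 14.0). Pdgfra, a receptor tyrosine kinase of migrating mesoderm (chromosome 5, 75152292 to 75198215), was at 16.1 and 0.862 CPM, 18.7-fold higher (15.3 to 23.0). Pmp22, a membrane protein (chromosome 11, 63128982 to 63159547), was at 17.5 and 4.56 CPM, 3.84-fold higher (3.43 to 4.30). Gata6 and Pdgfra each overlap a gene on the other strand (1010001N08Rik and Gm42802), whose reads cannot be told apart if counting ignored strand. The same holds for Cdh2, Lmo1, Tbx3, Efna3, Fam212a, Fn1, Evx1, Cfc1, Hoxb2, Bmp4, Fgf10, Wnt5a, Lef1, Otx2, Pou3f1, Pou5f1, Crb3, Tdh, Nkx1-2, Lmo2, Hk1, Jun, Meg3 and Psmb8, each of which overlaps another annotated gene. Krt18, Ldha and Ifitm1 have pseudogenes or close relatives, so their share of reads is uncertain.

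Against Brachyury-high Mesp1-negative cells these markers stood as far apart. Lhx1 had 139 CPM in members and 6.34 CPM in those cells, Cyp26a1 had 104 and 6.22 CPM, and Gata6 had 23.0 and 1.24 CPM. Pdgfra had 16.1 CPM in members and 0.574 CPM in Brachyury-high Mesp1-negative cells. Mesp2, the neighbouring paralog of Mesp1 (chromosome 7, 79810727 to 79813439), was at 14.3 CPM in members and 0.920 CPM in other knockout cells. How the counting divided reads between these related genes was not tested.

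No single marker besides Mesp1 was seen in every member. In thinned cells Lhx1 was detected in 56.4% of members (interval 53.6 to 59.1) and 6.92% of other knockout cells (6.26 to 7.62). Cyp26a1 was detected in 52.0% and 6.66%, Gata6 in 22.9% and 2.18%, and Pdgfra in 17.6% and 1.06%. The naive pluripotency-high non-members are given for reference, and were not shown to be free of streak gene expression. Their shares were 2.97% for Lhx1, 1.78% for Cyp26a1, 0.890% for Gata6 and 0.890% for Pdgfra. Without thinning, Lhx1 was detected in 65.3% of members and 9.29% of other knockout cells, and Gata6 in 31.7% and 2.97%. Gata6 and Pdgfra were linked only in part: Gata6 was detected in 33.2% of members with a Pdgfra UMI (27.0 to 39.8) and 20.8% of members without (18.3 to 23.4), of 1268 thinned members.

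**Figure D2:**
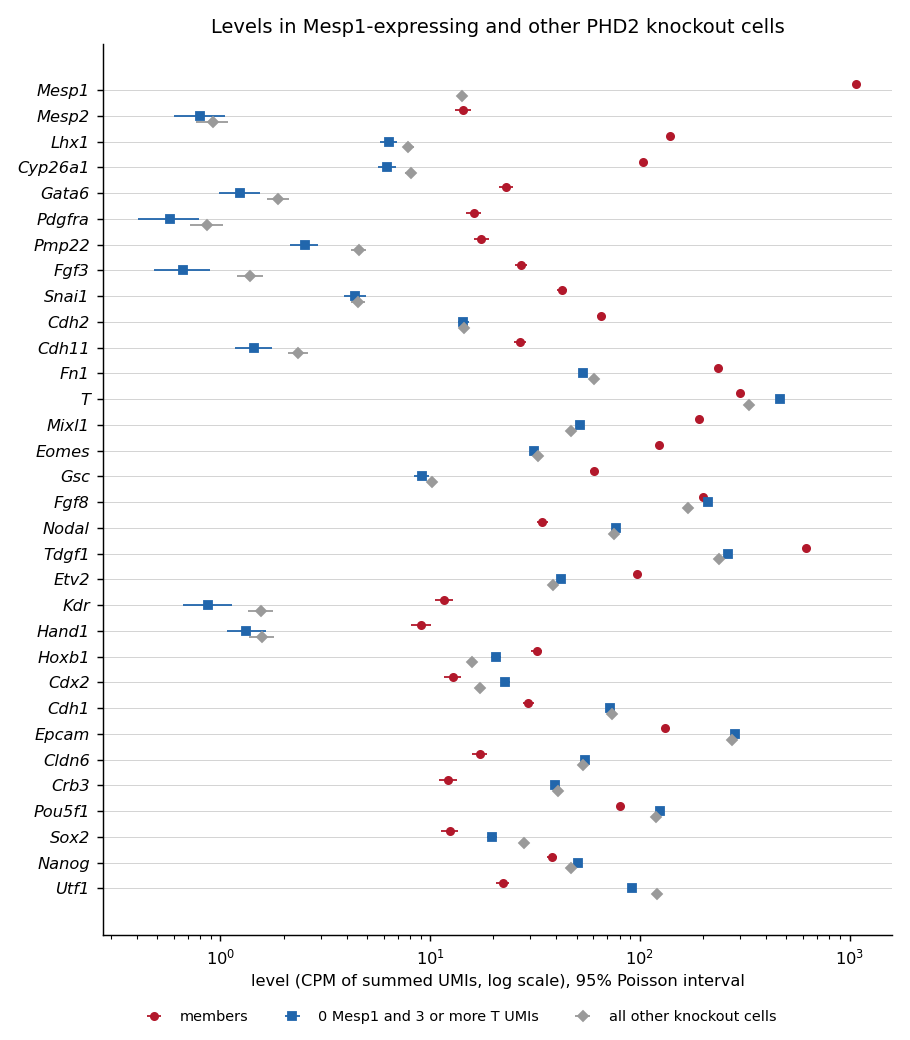
Levels in CPM (log scale) with exact Poisson 95% intervals in members (red circles), Brachyury-high Mesp1-negative cells (blue squares) and all other knockout cells (grey diamonds). Nascent mesoderm markers such as Lhx1 (139, 6.34 and 7.87 CPM) stand far to the right in members, T in members lies close to T in all other knockout cells (the blue squares were chosen on T), and Cdh1 and Utf1 stand to the left in members.

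All 14 measured genes of the nascent mesoderm list were higher in members, Mesp1 among them by choice. The median log2 ratio was 2.96, against -0.02 for all measured genes. Mesp2, Gata6, Pdgfra, Tbx6, Aplnr and Frzb were measured through members alone, at levels that fixed their call. The list also holds the label markers, so 14 of 14 is a description. Msgn1, the remaining gene of the list, fell short of 5 CPM (1.39 CPM in members and 0.395 CPM in the others). Snai1, a repressor of E-cadherin that starts the epithelial to mesenchymal transition, was at 42.4 CPM in members and 4.54 CPM in other knockout cells, 9.35-fold higher (8.51 to 10.3). Frzb, a secreted Wnt antagonist, was at 12.7 and 0.776 CPM, and Aplnr, the apelin receptor of migrating mesoderm, at 8.38 and 1.30 CPM. Phlda2, an imprinted gene best known as a brake on placental growth, was at 1141 and 286 CPM. Secreted regulators on the list were higher as well, with Rspo3, a Wnt agonist, at 45.7 and 16.9 CPM and Lefty2, a Nodal antagonist, at 30.9 and 9.99 CPM.

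The genes with the highest ratios over other knockout cells, at 20 CPM or more, mixed signals, transcription factors and adhesion molecules. Fgf3, a fibroblast growth factor of the streak (chromosome 7, 144838083 to 144844436), led them with 27.2 CPM in members and 1.39 CPM in other knockout cells, 19.6-fold higher (16.8 to 23.0). After Lhx1, Cyp26a1 and Gata6 came Cdh11, a mesenchymal cadherin, at 26.7 and 2.34 CPM, and Ptgds, a prostaglandin D synthase, at 22.8 and 2.39 CPM. Gas1, a membrane co-receptor for hedgehog ligands, was at 48.7 and 6.12 CPM, Lmo1, a LIM-only cofactor, at 57.8 and 7.51 CPM, and Dlc1 at 43.5 and 6.44 CPM. Gsc, the Goosecoid homeobox repressor of the anterior streak, was at 60.7 and 10.2 CPM. Tbx3, a T-box factor, was at 37.3 and 7.03 CPM, Efna3, an ephrin, at 68.1 and 13.3 CPM, and Fam212a at 24.4 and 4.96 CPM. Cdh2, the N-cadherin of mesenchymal cells, was at 64.9 and 14.5 CPM, 4.48-fold higher (4.21 to 4.76). The 10 highest ratios over Brachyury-high Mesp1-negative cells were Fgf3, Lhx1, Gata6, Cdh11, Cyp26a1, Ptgds, Lmo1, Tbx3, Snai1 and Dlc1.

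Primitive streak genes did not move as a block. Of 12 measured, 7 were higher in members and 2 lower than in other knockout cells, with a median log2 ratio of 0.81. T was close in both, at 299 CPM in members (294 to 305) and 329.9 CPM in other knockout cells (327 to 333), below the fold that makes a call. Mixl1, a homeobox factor of the streak, was at 191 and 47.1 CPM, 4.05-fold higher (3.91 to 4.19). Eomes, the T-box factor upstream of Mesp1 in the embryo, was at 123 and 32.8 CPM, 3.76-fold higher (3.61 to 3.92). Evx1, a homeobox factor of the posterior streak, was at 41.9 and 20.4 CPM, and Cfc1, the Cryptic co-receptor, was 4.08-fold higher (3.53 to 4.72). Cfc1 was measured through members alone, at a level that fixed its call. The 2 lower genes were Nodal, the TGF-beta ligand that induces the streak, at 34.3 CPM in members and 75.3 CPM in the others, and Fgf17 at 7.11 and 10.9 CPM. Fgf8, the ligand that cells need to leave the streak, was at 201 and 169 CPM, short of a call.

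The contrast between T and the other streak factors was also seen per cell. In thinned cells T was detected in 85.4% of members (83.3 to 87.3) and 81.9% of other knockout cells (80.8 to 82.9). Mixl1 was detected in 82.7% and 29.9%, Eomes in 73.1% and 28.0%, and Gsc in 45.9% and 9.04%. The naive pluripotency-high non-members gave 50.1% for T, 10.4% for Mixl1, 16.3% for Eomes and 1.78% for Gsc. Gsc was detected in 44.3% of members with a Cdx2 UMI (36.7 to 52.0) and 46.2% of members without (43.2 to 49.2). Lhx1 was detected in 67.4% of members with a Gsc UMI (63.4 to 71.2) and 47.1% of members without (43.3 to 50.9).

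Ligands and receptors of the streak pathways were higher or lower gene by gene. Over all measured genes 3.03% were higher and 7.10% lower, and single calls in these short lists are not read as results. In the Nodal pathway 4 of 11 measured genes were higher and 2 lower (median log2 ratio 0.18). The lower ones were Nodal and its feedback antagonist Lefty1, at 17.8 CPM in members and 49.1 CPM in other knockout cells, while the co-receptor Tdgf1 (Cripto) was at 622 and 238 CPM. Of 10 measured Wnt ligands and receptors 3 were higher and 1 lower. Wnt5a, a ligand of the non-canonical pathway in mesoderm, was at 18.6 and 3.54 CPM, Fzd7, a receptor, at 9.29 and 3.17 CPM, and Wnt8a, a streak ligand, at 6.99 and 13.6 CPM. Fzd7 was measured through members alone, at a level that fixed its call. Wnt3, the ligand that starts the streak, was at 45.0 and 32.5 CPM, short of a call. Among 7 measured Wnt targets 4 were higher and 0 lower, with the antagonist Dkk1 4.42-fold higher (4.01 to 4.88) and the nuclear effector Lef1 at 66.6 and 35.1 CPM.

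Of 6 measured FGF ligands and receptors 2 were higher and 1 lower, the higher ones being Fgf3 and Fgf10, a mesodermal ligand at 10.4 CPM in members and 1.87 CPM in other knockout cells. Both were measured through members alone, at levels that fixed their call. In the lists of this paragraph too, single calls are not read as results, beside 3.03% higher and 7.10% lower over all measured genes. None of 8 measured FGF and ERK feedback genes was called, with Dusp6, an ERK phosphatase, at 53.2 and 42.7 CPM. BMP ligands and receptors had 2 of 4 higher, among them Bmp4, the mesoderm-inducing ligand, at 6.34 and 3.35 CPM. The BMP targets split, with 2 of 6 higher and 1 lower. Msx2, a homeobox factor, was at 30.4 and 7.26 CPM and Id2, an inhibitor of helix-loop-helix factors, at 20.5 and 62.5 CPM, while Id1 was at 548 and 533 CPM. In the Notch list 3 of 6 were higher and 0 lower, among them the ligand Dll3 at 39.2 and 10.1 CPM and the repressor Hes1 at 109 and 61.6 CPM. Retinoid genes gave 2 of 7 higher and 0 lower. They were Cyp26a1 and Crabp1, a retinoic acid binding protein at 25.5 and 11.7 CPM.

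Several genes of early mesoderm derivatives were higher in members. On the list of lateral and extraembryonic mesoderm, 7 of 8 measured genes were higher and 0 lower (median log2 ratio 1.95). Among them Hand1, Gata4 and Gata6 were measured through members alone, at levels that fixed their call. Hand1, a helix-loop-helix factor of extraembryonic and heart mesoderm, was at 9.06 CPM in members and 1.57 CPM in other knockout cells, and was detected in 8.12% and 1.63% of thinned cells. Foxf1, a forkhead factor of lateral mesoderm, was at 3.39 and 0.244 CPM, under the measured level. Of the 11 genes on the cardiac list 3 were measured, Gata4 and Wnt2 only through members, where they are high. Gata4, a heart and endoderm factor, was at 15.4 and 1.59 CPM, Wnt2, a ligand of the early heart field, at 10.5 and 0.704 CPM and Myl7, a myosin light chain, at 13.3 and 7.12 CPM. The heart factors Nkx2-5 (0.236 and 0.101 CPM) and Tbx5 (0.0885 and 0.0359 CPM) were near 0 in both, and with no filter on low values the list's median log2 ratio was 0.17.

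Blood and endothelial genes gave 3 higher and 0 lower of 6 measured. Etv2, the factor that starts the endothelial and blood programme, was at 96.8 CPM in members and 38.6 CPM in other knockout cells, and in Brachyury-high Mesp1-negative cells at 42.0 CPM. It was detected in 41.2% of members (38.5 to 44.0), against 21.3% of other knockout cells (20.2 to 22.4), 13.4% of the naive pluripotency-high non-members and 12.8% of WT cells. Kdr, the VEGF receptor of early vascular mesoderm, was at 11.6 and 1.56 CPM, measured through members alone at a level that fixed its call. Lmo2, a cofactor of blood development, was at 6.05 and 7.08 CPM, and Tal1, its partner, at 0.708 and 0.704 CPM. Lmo2 was detected in 7.33% of thinned members, 6.64% of other knockout cells and 2.67% of the naive pluripotency-high non-members. Both Etv2 and Lmo2 were detected in 49 of 1268 thinned members (3.86%).

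Paraxial and caudal genes were in part higher in members, while Sox17, Foxa2 and the node list stayed near 0. Tbx6, a T-box factor of paraxial mesoderm, was at 6.73 CPM in members and 1.04 CPM in other knockout cells, and paraxial genes gave 2 of 4 higher. Tbx6 was measured through members alone, at a level that fixed its call. Among cells with a low chromosome 8 share 3 of 5 paraxial genes were higher, and among the remaining cells 1 of 3. The endoderm factors Sox17 (0.531 and 0.510 CPM) and Foxa2 (0.324 and 0.711 CPM) were near 0 in both, and Foxa2 was detected in 0.473% of thinned members (0.174 to 1.03). Trh, on the endoderm list, was lower, at 29.1 and 145 CPM, and 1 of the 3 measured genes of that list, Gsc, was higher. No gene of the node list reached 5 CPM, and Noto was at 0 in members. Of 5 measured caudal genes 3 were higher and 1 lower. Hoxb1 was at 32.3 and 15.8 CPM and Hoxb2 at 12.1 and 3.15 CPM. Hoxb1 was detected in 30.4% of thinned members (385 of 1268 cells), against 3.26% of the naive pluripotency-high non-members. The groups nearer to members lay between these, with 821 of 5463 other knockout cells and 498 of 2625 Brachyury-high Mesp1-negative cells. Cdx2, a caudal homeobox factor, was at 12.9 CPM in members, 22.8 CPM in Brachyury-high Mesp1-negative cells and 17.3 CPM in other knockout cells. Nkx1-2, a factor of caudal progenitors, was at 2.30 and 5.78 CPM and counted as lower. Hoxb2 was measured through members alone and Nkx1-2 through other knockout cells alone, at levels that fixed both calls. Over all measured genes 3.03% were higher and 7.10% lower.

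Epithelial genes were lower in members. Of 14 measured, 12 were lower and 0 higher than in other knockout cells, with a median log2 ratio of -1.01, and 11 were lower than in Brachyury-high Mesp1-negative cells. Cdh1, the E-cadherin of epithelial junctions (chromosome 8, 106603351 to 106670246), was at 29.4 CPM in members (27.6 to 31.2) and 73.3 CPM in other knockout cells (71.9 to 74.8), 2.50-fold lower (2.34 to 2.67). Epcam, an epithelial adhesion molecule, was at 132 and 274 CPM, and the tight junction claudins Cldn6 at 17.2 and 53.7 CPM and Cldn7 at 48.5 and 140.0 CPM. Crb3, an apical polarity protein, was at 12.1 and 40.6 CPM. The keratin Krt18 was at 158 and 313 CPM, while the desmosome gene Dsp was at 46.0 and 46.7 CPM.

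Mesenchymal genes were in part higher. Of 14 measured, 8 were higher and 0 lower, with a median log2 ratio of 0.67. Fn1, the fibronectin that mesoderm migrates on, was at 237 CPM in members and 60.4 CPM in other knockout cells, 3.93-fold higher (3.81 to 4.05). Vim, an intermediate filament, was at 369 and 334 CPM and Sparc, a matrix protein, at 115 and 170.3 CPM, neither past the fold. The cadherins were not exclusive within members: Cdh1 was detected in 22.3% of thinned members with a Cdh2 UMI (19.2 to 25.5) and 25.9% of those without (22.4 to 29.7). Over all thinned members Cdh1 was detected in 23.9% and Cdh2 in 55.3%, against 57.7% and 15.4% of other knockout cells. Among guidance genes 4 of 9 were higher and 2 lower, against 3.03% and 7.10% of all measured genes. Epha4, an ephrin receptor, was at 12.3 and 2.64 CPM and Plxna2, a semaphorin receptor, at 13.3 and 2.12 CPM, while Epha2 was at 3.89 and 7.62 CPM. Epha4 and Plxna2 were measured through members alone, at levels that fixed their call.

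Pluripotency genes were mostly lower, with named exceptions. Of 11 general pluripotency genes 6 were lower and 2 higher (median log2 ratio -1.03), and of 7 measured naive genes 6 were lower and 0 higher. Utf1, a chromatin factor of stem cells, had the lowest ratio at 20 CPM or more, with 22.2 CPM in members (20.6 to 23.8) and 120.5 CPM in other knockout cells (119 to 122), 5.43-fold lower (5.05 to 5.85). In WT cells Utf1 was at 424 CPM. Sox2, the neural and pluripotency factor, was at 12.4 CPM in members and 28.0 CPM in other knockout cells. Pou5f1 (Oct4) was at 80.8 and 119.9 CPM and Nanog at 38.1 and 47.0 CPM, neither past the fold against other knockout cells. The higher ones were Tdgf1 and Sall4, a zinc finger factor at 93.4 and 51.5 CPM.

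The naive list depended on which cells members were set against. Against Brachyury-high Mesp1-negative cells 2 of 6 measured naive genes were lower. Dppa5a was at 292 CPM in members, 427 CPM in those cells and 658 CPM in all other knockout cells, and Klf2 at 5.46, 6.04 and 14.9 CPM. The remaining low ratios among the 10 lowest over other knockout cells were Tdh, a threonine dehydrogenase of stem cells, at 7.05 and 37.2 CPM, Fgfbp1 at 4.96 and 21.0 CPM, Apela, a ligand of Aplnr, at 5.07 and 21.2 CPM, and Calca, 2.87-fold lower (2.55 to 3.24). Of 8 formative genes 2 were higher and 1 lower. Otx2 was at 24.7 and 14.5 CPM, Zic2 at 44.4 and 22.3 CPM and Pou3f1 at 8.82 and 24.9 CPM.

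**Figure D3:**
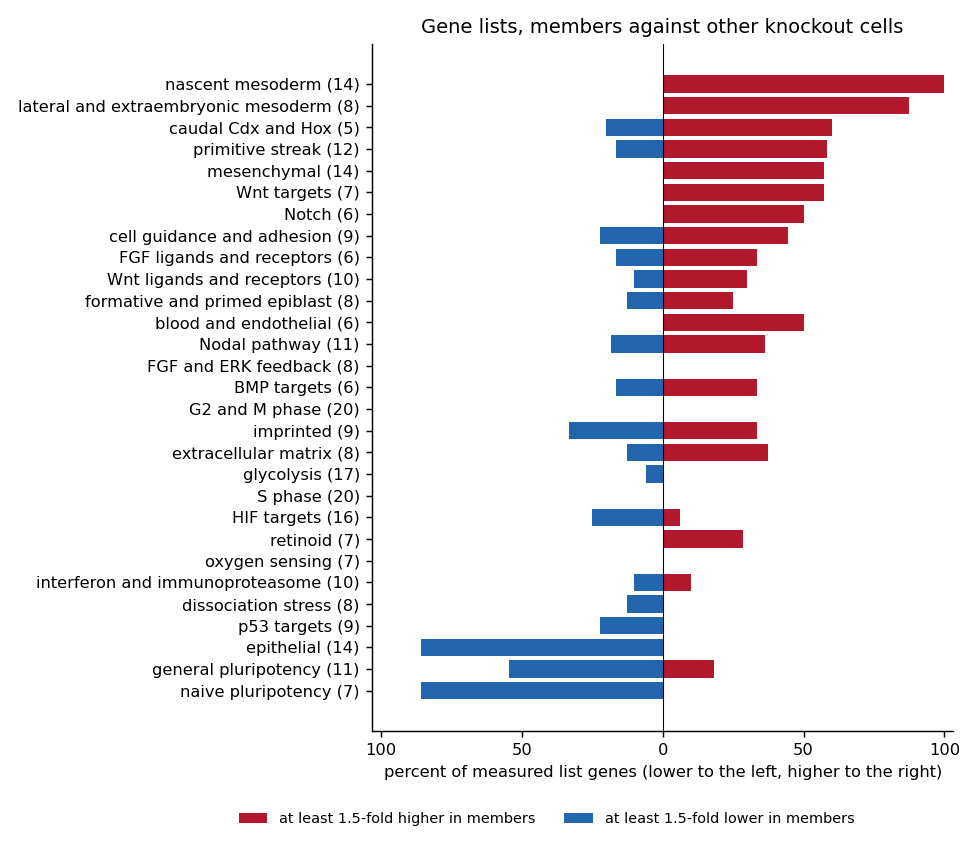
Percent of the measured genes of each list (number in brackets) that were at least 1.5-fold higher (red, right) or lower (blue, left) in members than in other knockout cells. Nascent mesoderm reached 100% higher (14 of 14), epithelial genes were lower in 12 of 14, and cell cycle and glycolysis lists lay near 0. Some genes of the nascent mesoderm and other lists were measured through members alone, or through other knockout cells alone, which fixed their call.

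Oxygen-sensing genes were at like levels in members and other knockout cells, and some HIF targets were lower. None of 7 measured oxygen-sensing genes was called, and Egln1 was at 14.1 CPM in members and 13.6 CPM in other knockout cells. These levels do not check the knockout, because the position of the alteration is unknown here. Of 16 measured HIF targets 1 was higher and 4 lower (against 3.03% and 7.10% of all measured genes), and 5 were lower than in Brachyury-high Mesp1-negative cells. The median log2 ratio against other knockout cells was -0.03. Vegfa, the vascular growth factor, was at 8.67 and 5.50 CPM. The lower ones were Ankrd37, 1.69-fold lower (1.52 to 1.89), Bhlhe40, a helix-loop-helix repressor, at 4.28 and 9.39 CPM, Ddit4, an mTORC1 inhibitor, at 29.3 and 56.0 CPM, and Pdk1, a brake on pyruvate entry into mitochondria, at 7.96 and 16.4 CPM. Of 17 glycolysis genes 1 was lower, Hk1 at 2.80 and 5.20 CPM, near the share of lower calls over all measured genes. Hk1 was measured through other knockout cells alone, at a level that fixed its call. Ldha, which makes lactate, was at 2014 and 1378 CPM, 1.46-fold apart and short of a call.

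Cell cycle genes did not differ past the fold, with 0 of 20 S phase and 0 of 20 G2 and M phase genes called. Over all measured genes 3.03% were higher and 7.10% lower, so single calls in the short lists below are not read as results. Of 9 p53 targets 2 were lower, among them Mdm2 at 46.8 CPM in members and 84.3 CPM in other knockout cells, and 1 of 8 dissociation stress genes was lower (Jun, 31.3 and 49.8 CPM). Of 9 imprinted genes 3 were higher and 3 lower, with Peg3 at 297 and 137 CPM and Meg3 at 111 and 184 CPM. In the interferon list Ifitm1, an interferon-induced membrane protein, was the higher one at 847 and 374 CPM, and Isg15 the lower one at 12.7 and 22.1 CPM. Markers of feeder fibroblasts summed to 7.46 CPM in members and 9.74 CPM in other knockout cells, with 4 of 10 at 0 in members. Visceral endoderm markers summed to 7.82 and 12.8 CPM with 4 of 8 at 0 in members, and trophoblast markers to 14.9 and 12.9 CPM with 2 of 8 at 0. Of 8 extracellular matrix genes 3 were higher and 1 lower, and of 3 germ cell genes 0 and 2. The neuroectoderm list had 1 measured gene, not called, and the surface ectoderm list 2, of which 1 (Gata3, 9.94 and 3.19 CPM) was higher. Gata3 was measured through members alone, at a level that fixed its call. Markers of cells that resemble the early cleavage embryo summed to 2.68 and 7.03 CPM, with no measured gene.

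Around the threshold, the other markers changed by steps. In members with 3 Mesp1 UMIs (121 cells, just inside) and in non-members with 2 (317 cells, just outside), Lhx1 was at 50.6 and 19.6 CPM, Cyp26a1 at 31.9 and 21.5 CPM and Utf1 at 57.7 and 105 CPM. Cells of 2 UMIs were thus between those of 0 UMIs and the members for all 3 genes. Across cells with 0, 1, 2, 3 to 4, 5 to 9 and 10 or more Mesp1 UMIs, Lhx1 was at 5.96, 10.5, 19.6, 54.1, 94.9 and 168 CPM. Over the same bins Snai1 was at 4.11, 4.99, 7.69, 15.1, 24.3 and 52.4 CPM, and Fgf3 at 1.21, 1.31, 3.73, 5.31, 17.3 and 34.2 CPM. T kept within a narrow range, at 332, 331, 305, 333, 328 and 286 CPM. Cdh1 was at 74.2, 73.4, 63.5, 55.0, 28.0 and 24.1 CPM, and Utf1 at 122, 119, 105, 49.5, 20.4 and 16.7 CPM. The bins hold 4375, 1345, 317, 207, 224 and 915 cells.

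Some genes were highest before the top bin. Fgf8 was at 168, 165, 188, 224, 226 and 189.9 CPM over the bins, and Msgn1, a paraxial factor, at 0.401, 0.386, 0.361, 3.34, 2.28 and 0.764 CPM. Bmp4 was at 3.07, 3.57, 5.77, 12.4, 8.37 and 4.58 CPM. Lefty2 reached its higher level only late, at 10.0, 9.93, 9.62, 11.8, 30.4 and 35.1 CPM. The order of the bins is an order of UMI counts, which also grow with cell depth, and is not a time course.

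**Figure D4:**
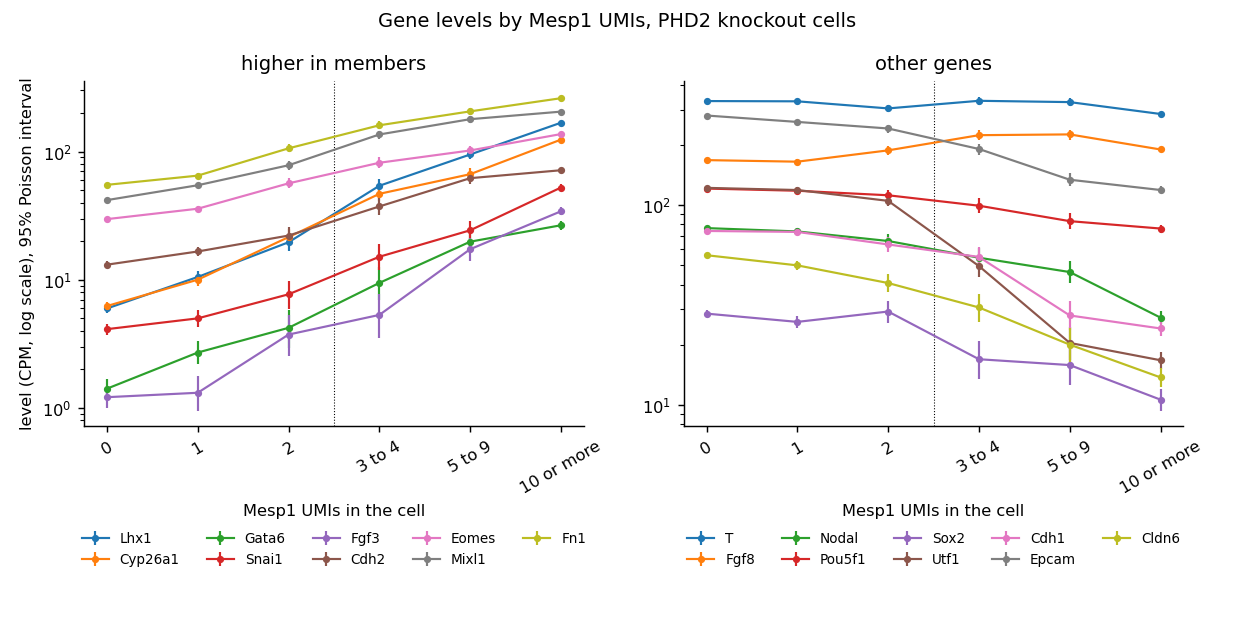
Levels in CPM (log scale) with exact Poisson 95% intervals in knockout cells grouped by Mesp1 UMIs, with members to the right of the dotted line. Lhx1 runs from 5.96 CPM at 0 UMIs to 168 CPM at 10 or more, T stays between 286 and 333 CPM, and Cdh1 and Utf1 are lowest in the last bin.

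Members differed among themselves in T. They held 124 cells with no T UMI, 311 with 1 to 2 and 911 with 3 or more, with median depths of 18976, 20206 and 24376 UMIs. Mesp1 stayed within 1.5-fold over these groups, at 1161, 1151 and 1038 CPM. So did Lhx1 (163, 148 and 135 CPM), Mixl1 (179, 169 and 198 CPM) and Gsc (49.7, 61.2 and 61.6 CPM). Mesp1 was still lower at 3 or more T UMIs (interval 1025 to 1051) than at 0 (1119 to 1205). The same held for Lhx1 (130.2 to 139, against 147 to 180.3). Fgf8 was lowest where T was absent, at 87.7, 104 and 237 CPM, and Fst, the activin-binding follistatin, was at 122, 148 and 320.4 CPM. Cdx2 was at 5.01, 6.41 and 15.3 CPM and Cdh1 at 17.1, 12.7 and 34.9 CPM.

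Other genes were highest where T was absent or low. Phlda2 was at 2018, 2026 and 825 CPM in members with 0, 1 to 2 and 3 or more T UMIs, and Pmp22 at 33.4, 31.6 and 12.3 CPM. Kdr was at 25.5, 20.9 and 7.85 CPM, Fgf3 at 39.2, 39.8 and 22.8 CPM, and Tbx3 at 65.1, 64.7 and 27.4 CPM. Msx2 was at 63.5, 53.3 and 21.2 CPM and Dkk1 at 57.6, 42.6 and 17.2 CPM. Members with 3 or more T UMIs also had less Myl7 (8.38 CPM, against 38.0 CPM in members with none) and less Gata4 (11.8 and 31.3 CPM). They had more Psmb8, an immunoproteasome subunit (75.1 and 20.9 CPM), more Dnmt3b, a DNA methyltransferase (74.1 and 24.6 CPM), and more L1td1 (145 and 47.6 CPM). Groups made on T hold cells of unequal depth, and the part of depth in these differences was not tested.

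Correlations across the 1268 thinned members, of 190 pairs computed, describe the same pattern and share the library. Pearson's r was -0.43 for T and Phlda2, 0.41 for T and Fgf8 and -0.39 for Fgf8 and Phlda2. Between Mesp1 and Lhx1 it was 0.36, between Mesp1 and Snai1 0.34, and between Mesp1 and T -0.09. Counts per cell are sparse, and the weak values are no finding.

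The share of UMIs from chromosome 8 genes moved with membership. Over knockout cells this share had peaks at 4.85% and 6.85% with a trough at 5.85%. This split was chosen with the values in view. Members had a median share of 5.04%, against 6.56% in other knockout cells, and 66.7% of members lay below the trough, against 39.1% of other knockout cells and 41.9% of Brachyury-high Mesp1-negative cells. Members made up 27.6% of the 3258 cells below the trough (26.0 to 29.1) and 10.9% of the 4125 cells at or above it (9.93 to 11.9). Of 503 measured chromosome 8 genes, 79.5% had a lower level in members than in other knockout cells, with a median log2 ratio of -0.14, while medians on other autosomes lay between -0.02 and 0.02. On the X chromosome 63.2% of genes were lower in members and the median was -0.08. In WT cells 14.4% lay below 5.85%. The share of chromosome 11 moved too: cells at or above its median held 27.0% members, against 9.43% in cells below it.

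**Figure D5:**
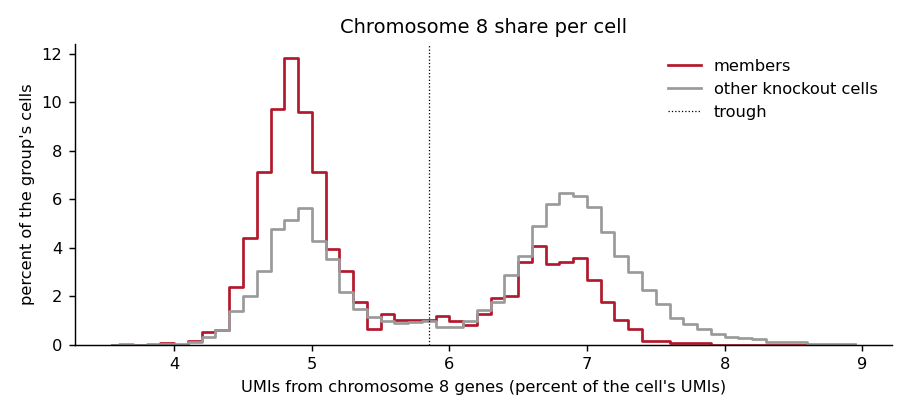
Percent of members (red) and of other knockout cells (grey) at each share of UMIs from chromosome 8 genes. Both groups have peaks near 4.85% and 6.85%, and 66.7% of members but 39.1% of other knockout cells lie left of the dotted trough at 5.85%.

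The differences between members and other cells were present on both sides of the trough. All 262 higher and all 614 lower genes kept their direction in both, and 225 and 202 of the higher ones passed 1.5-fold below and above it. Of the lower ones, 548 and 440 passed below and above it. These genes were called on the same cells pooled, so a kept direction was favoured in advance and is no independent check. Below the trough Lhx1 was at 162 CPM in members and 12.3 CPM in others, and above it at 96.4 and 4.87 CPM. Snai1 was at 44.0 and 5.74 CPM below the trough and at 39.6 and 3.72 CPM above it. Cdh1, on chromosome 8 like Cdh11, Dlc1 and Apela, was at 24.3 and 63.5 CPM below the trough and at 38.9 and 80.1 CPM above it. The nascent mesoderm list gave 14 of 14 higher below the trough and 13 of 13 above, and the epithelial list 12 of 14 and 9 of 14 lower. For the nascent mesoderm list the limit on genes measured through members alone holds here too.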

How the data were processed

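Per the file headers, the count matrices came from Cell Ranger 4.0.0. The authors deposited raw UMI counts, 1 value per gene and barcode. Build mm10, Cell Ranger and Seurat are named in the submitters' processing notes. Sequencing depth and the strand used in counting are not stated there. The PHD2-KO matrix held 7713 barcodes and 173470962 UMIs, the WT matrix 9651 barcodes and 226179474 UMIs, over 27998 genes each. Barcodes with at least 1000 genes and at most 10% mitochondrially encoded UMIs were kept (7383 PHD2-KO, 9227 WT).

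From these counts UMIs were summed per group of cells and scaled to CPM, with exact Poisson intervals for levels, exact conditional binomial intervals for folds and Clopper-Pearson intervals for shares, all at 95% and for counting error only. Log2 ratios used a pseudocount of 1 CPM. Folds are plain CPM ratios. Shares of cells with a UMI were taken after thinning each cell to 14000 UMIs, which left out 78 members and 574 other knockout cells. Scrublet (scanpy 1.11.5) marked 0 knockout cells at its automatic threshold, so the 456 highest scores (6.18%) were removed only as an alternative. Python 3.11.15, numpy 2.4.6, scipy 1.17.1 and pandas 2.3.3 were used. GENCODE M21 gave coordinates for 27645 genes.

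The members and the 42 gene lists were chosen with earlier results of these data known. Genes were named by a rule: the label markers, the 15 highest and 10 lowest ratios over other knockout cells and the 10 highest and lowest over Brachyury-high Mesp1-negative cells at 20 CPM or more, the ends and the most abundant gene of each list, and the genes of the shares. Other list genes and the genes in the comparison by T UMIs were chosen after their values were seen.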

Additional observations from a re-analysis of the deposited data

How the results depend on the processing

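Calling a cell a member from 1 Mesp1 UMI gave 3008 members. It left 114 genes higher and 59 lower than in other knockout cells, and 121 higher and 55 lower than in Brachyury-high Mesp1-negative cells. With no filter on low values the counts were 1909 higher and 5780 lower, and 2293 and 4780 against Brachyury-high Mesp1-negative cells. A filter of 20 CPM gave 107 and 194, and 108 and 194. The number of measured genes changes with the filter and the rule, and was not kept for these alternatives. These counts therefore cannot be set as shares against the main 3.03% and 7.10%. Of the counts recomputed under alternatives, 67 stayed within 1.5 times and 13 did not. Over all 3195 alternative values, counts included, 2541 stayed, 649 moved and 5 reversed. A log2 ratio stayed when it lay inside the interval of its main value. It reversed when a main value past 1.5-fold changed sign. The paraxial mesoderm median turned to -0.03 with 1 Mesp1 UMI and to -0.04 above the chromosome 8 trough, and to -0.02 and -0.01 against Brachyury-high Mesp1-negative cells. Sox2 turned to 0.03 against those cells with 1 Mesp1 UMI. In all, 110 alternative values of 32 results changed sign, none of a result whose main log2 ratio was past 0.88 in size. The naive median against those cells went to 0.15 with 1 Mesp1 UMI. With no filter the medians of formative genes and of blood and endothelial genes were -0.42 and -0.01, and that of cardiac genes 0.17. Above the trough the blood median was -0.07, and with the 20 CPM filter the retinoid median was 1.07. The cause was not tested. Without the highest doublet scores 1217 members remained, after thinning 1109, and within 15000 to 30000 UMIs 928. Median-of-ratios scaling moved the median of all genes by 0.06 on the log2 scale. The chromosome 8 trough and the shared barcodes were alternatives chosen after seeing the data. No paired analysis was possible because each genotype has 1 library. With 1 library, the spread between cultures or clones is unknown, and no difference here has a replicate check.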
